A study of Arabidopsis thaliana with 20 samples.

Results

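The 8 genes described here regulate seed dormancy and the germination of seeds in light: *DOG1* (AT5G45830), *MFT* (AT1G18100), *RDO5* (AT4G11040), *PIF1* (AT2G20180, also *PIL5*), *SOM* (AT1G03790), *SPT* (AT4G36930), *DAG1* (AT3G61850) and *DAG2* (AT2G46590). They were chosen by gene identifier, and all 8 are present among the 33557 genes of the deposited table. The Arabidopsis seeds were either della mutants (*Δdella*), in the Col-0 background and carrying mutations in 5 DELLA genes (*RGL2*, *RGA*, *GAI*, *RGL1* and *RGL3*), or WT (Col-0). Each genotype was cultured for 20 hr under 5 conditions: 5 µM paclobutrazol (PAC), PAC with 10 µM GA, 0.7 mg/ml of an extract of Pseudomonas aeruginosa (*PAO1* extract), *PAO1* extract with 10 µM GA, or the same medium with no addition (MS, labelled MOCK). RNA came from total seeds, so that embryo, endosperm and seed coat were not separated, and a lower level can reflect fewer cells of a type or less RNA per cell, which cannot be told apart here. Each of the 10 groups had 2 biological replicates, and the authors pooled them into 1 value per gene and group. The values are in FPKM, that is, reads scaled by transcript length and library size, by a normalization that was not given. There is therefore no replicate spread, no SD and no test in what follows, and every difference is between single pooled values.

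GA and DELLA proteins control germination in opposite directions: DELLA proteins repress it, and GA, produced by the seed upon imbibition in light, leads to their degradation. PAC blocks GA synthesis and so stabilizes DELLA proteins. Phytochromes connect light to this pathway through *PIF1*, a transcription factor that activates *SOM* and DELLA genes and is destroyed upon phytochrome activation, while *SOM* shifts hormone metabolism towards low GA and high ABA. Dormancy, the block to germination of freshly matured seeds, depends on *DOG1*, which sequesters phosphatases that inhibit ABA signaling, and on *RDO5*.

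The genotype labels were first checked against the DELLA genes. *RGL2*, the DELLA gene with the most prominent role in germination, had 4.22 to 8.65 FPKM in *Δdella* seeds, against 147.2 to 177.5 FPKM in WT seeds. The 5 DELLA genes summed to between 51.95 and 61.83 FPKM in *Δdella* seeds and to between 277.5 and 437.6 FPKM in WT seeds. *GAI*, *RGL1* and *RGL3* were also lower by at least 2-fold in *Δdella* seeds on PAC (10.3, 0.616 and 14.9 FPKM, against 29.1, 3.89 and 53.4 FPKM in WT seeds), whereas *RGA* had 22.1 FPKM, against 43.8 FPKM in WT seeds, just short of that limit. *GAI* had 29.1 FPKM in WT seeds on PAC, against 70.2 FPKM in WT seeds on MS. Among 6 seed maturation markers (storage proteins, an oleosin and EM proteins), the summed level was 61.6 to 159 FPKM in *Δdella* seeds, and in WT seeds it was 8548 FPKM on PAC, 1413 FPKM on PAC and GA, 2676 FPKM with extract, 386 FPKM with extract and GA and 683 FPKM on MS. All 3 endosperm markers were detected in every group, with sums of 1835 to 2226 FPKM in *Δdella* seeds, 1560 FPKM in WT seeds on PAC and 2572 to 3230 FPKM in the other WT groups. The sum of 5 green seedling markers was 1447 to 1586 FPKM in *Δdella* seeds and 1269 to 2083 FPKM in WT seeds. No marker of these 3 lists was at 0 in any group.

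**Figure D1:**
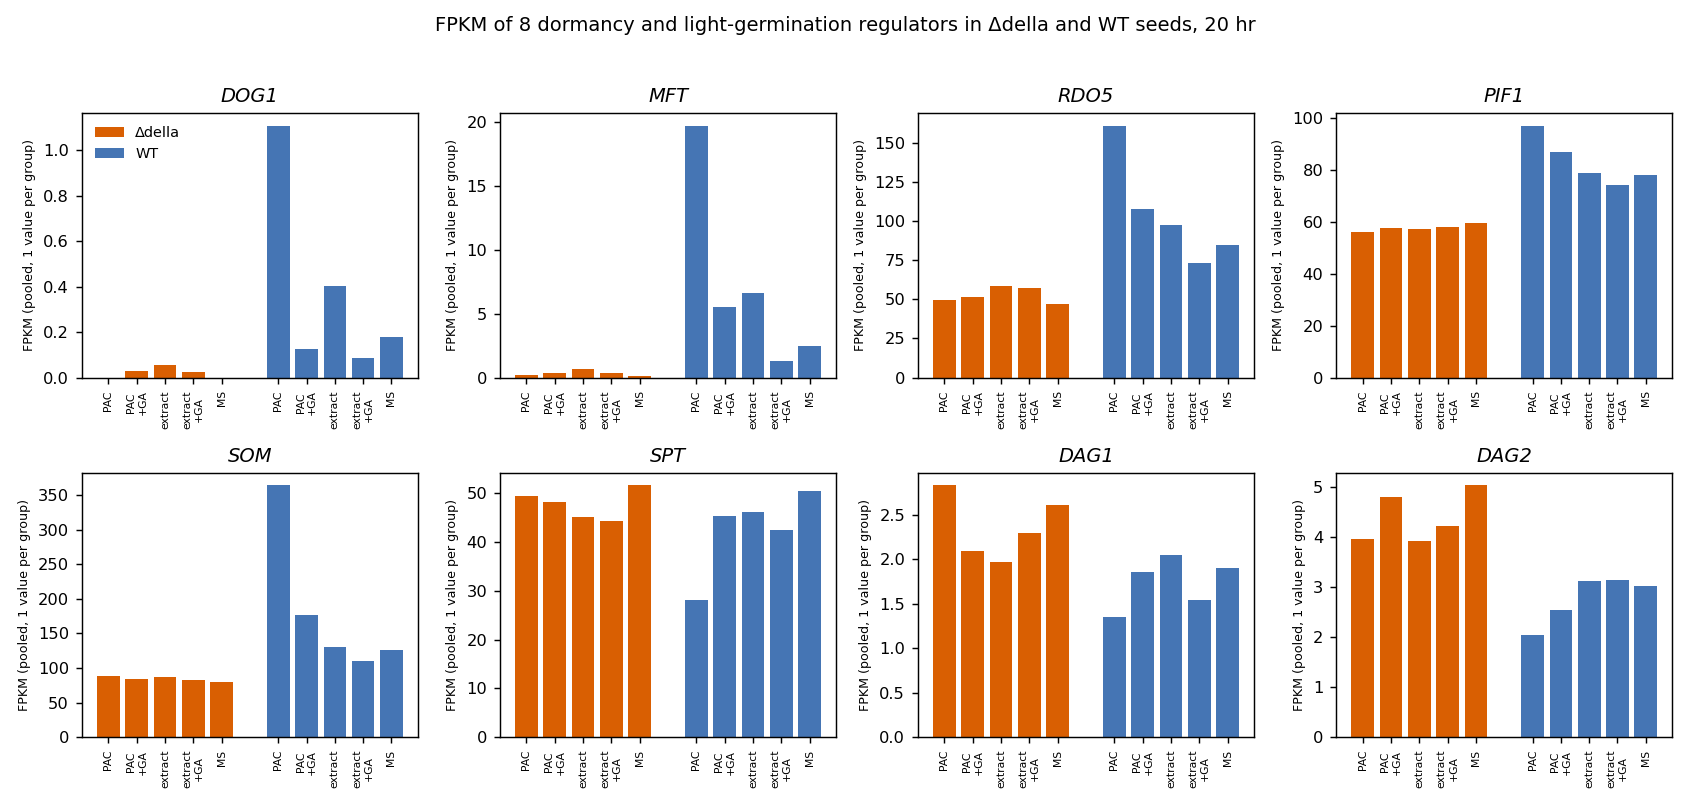
FPKM (vertical axis, linear, starting at 0, a separate scale for each gene) of the 8 regulators in 5 conditions of *Δdella* seeds (left in each panel) and WT seeds (right), 1 pooled value per bar and no error bars. *SOM* stands at 364 FPKM in WT seeds on PAC and between 79.9 and 88.9 FPKM in all *Δdella* groups, while *SPT* has its lowest bar, 28.1 FPKM, in WT seeds on PAC.

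The dormancy genes were examined first. *DOG1* encodes a central determinant of dormancy depth and lies on chromosome 5 (18589482 to 18591400 in the TAIR10 coordinates of the table). *DOG1* was listed at 0 FPKM on PAC, 0.027 on PAC and GA, 0.0568 with extract, 0.0235 with extract and GA and 0 on MS in *Δdella* seeds. In WT seeds *DOG1* had 1.11 FPKM on PAC, 0.126 on PAC and GA, 0.402 with extract, 0.0870 with extract and GA and 0.177 on MS. Every *Δdella* value was thus below every WT value, and *DOG1* passed 1 FPKM only in WT seeds on PAC. These levels are close to the lower limit of the table, and the number of reads behind them is not known.

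*MFT* encodes a relative of the flowering regulator *FT* and acts in seeds in the response of germination to ABA and GA. Its transcript had 0.198 FPKM on PAC, 0.342 on PAC and GA, 0.677 with extract, 0.375 with extract and GA and 0.137 on MS in *Δdella* seeds. In WT seeds *MFT* had 19.7 FPKM on PAC, 5.52 on PAC and GA, 6.63 with extract, 1.33 with extract and GA and 2.50 on MS. WT seeds on PAC stood highest, WT seeds with extract and WT seeds on PAC and GA came next, and the genotypes did not overlap. The highest and lowest WT groups differed 14.8-fold, a wider span than for any other of the 8 genes in WT seeds. *MFT* (chromosome 1, 6227217 to 6230194, minus strand, TAIR10.1) overlaps AT1G18090 on the opposite strand by 606 bases, and the sources used here do not state whether strand was used in the counting. AT1G18090 had 15.8 to 16.9 FPKM in *Δdella* seeds, 7.38 FPKM in WT seeds on PAC and 12.2 to 15.3 FPKM in the other WT groups, so it was lowest where *MFT* was highest. *MFT* also overlaps a non-coding RNA gene, AT1G05383, by 550 bases, which has no value in the table and was not analysed here.

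*RDO5* encodes a protein of the PP2C phosphatase family whose loss reduces dormancy. *RDO5* (chromosome 4, 6745100 to 6746944) had 49.8 FPKM on PAC, 51.7 on PAC and GA, 58.7 with extract, 56.9 with extract and GA and 47.2 on MS in *Δdella* seeds. In WT seeds it had 160.7 FPKM on PAC, 107.9 on PAC and GA, 97.6 with extract, 72.9 with extract and GA and 84.7 on MS. Again all *Δdella* values were below all WT values. The order of the WT groups was that of *MFT* except that PAC and GA stood above extract. Within *Δdella* seeds, both extract groups of *RDO5* stood above the other 3, by at most 1.24-fold.

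The light-germination genes followed. *PIF1*, the bHLH factor that represses germination in the dark, had 56.2 FPKM on PAC, 57.8 on PAC and GA, 57.2 with extract, 58.1 with extract and GA and 59.5 on MS in *Δdella* seeds. In WT seeds *PIF1* had 97.0 FPKM on PAC, 87.0 on PAC and GA, 78.7 with extract, 74.4 with extract and GA and 77.9 on MS. Its highest and lowest groups differed 1.06-fold in *Δdella* seeds and 1.31-fold in WT seeds. *PIF1* (chromosome 2, 8704024 to 8707009, minus strand, TAIR10.1) overlaps AT2G20170 on the opposite strand by 334 bases, and AT2G20170 did not pass 0.11 FPKM in any group.

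*SOM* encodes a CCCH zinc finger protein that represses germination downstream of *PIF1*. It had 88.9 FPKM on PAC, 84.0 on PAC and GA, 87.4 with extract, 83.3 with extract and GA and 79.9 on MS in *Δdella* seeds. In WT seeds *SOM* (chromosome 1, 954525 to 956097) had 364 FPKM on PAC, 177 on PAC and GA, 129.9 with extract, 109.8 with extract and GA and 126 on MS. Its 5 *Δdella* values lay within 1.11-fold of each other and below all WT values, while the WT values spanned 3.32-fold. Unlike *MFT*, *SOM* had nearly the same level with extract and on MS in WT seeds.

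*SPT*, a bHLH factor related to the PIFs that acts in the response of germination to cold and light, differed from these genes on PAC. It had 49.6 FPKM on PAC, 48.2 on PAC and GA, 45.1 with extract, 44.3 with extract and GA and 51.7 on MS in *Δdella* seeds. In WT seeds *SPT* (chromosome 4, 17414127 to 17416294) had 28.1 FPKM on PAC, 45.5 on PAC and GA, 46.3 with extract, 42.5 with extract and GA and 50.4 on MS. Only WT seeds on PAC stood apart, and the other 9 groups lay between 42.5 and 51.7 FPKM with the genotypes overlapping.

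*DAG1* and *DAG2* encode closely related Dof zinc finger factors with opposite roles, *DAG1* repressing and *DAG2* promoting germination in light. *DAG1* (chromosome 3, 22895268 to 22897558) had 2.83 FPKM on PAC, 2.09 on PAC and GA, 1.97 with extract, 2.29 with extract and GA and 2.61 on MS in *Δdella* seeds. In WT seeds *DAG1* had 1.35, 1.85, 2.05, 1.54 and 1.90 FPKM under the same 5 conditions. The ranges overlapped through the extract groups. *DAG2* (chromosome 2, 19133040 to 19135289) had 3.95, 4.80, 3.92, 4.23 and 5.03 FPKM in *Δdella* seeds, again in the order PAC, PAC and GA, extract, extract and GA, MS. In WT seeds *DAG2* had 2.04, 2.54, 3.12, 3.14 and 3.03 FPKM, so that all *Δdella* values were above all WT values. Despite their opposite roles, both DAG genes had their lowest WT value on PAC.

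Over all 10 groups, *SOM* had the highest level of the 8 genes per transcript length in every group. In WT seeds on MS the order was *SOM*, *RDO5*, *PIF1*, *SPT*, *DAG2*, *MFT*, *DAG1* and *DOG1*, and in WT seeds on PAC *MFT* stood above *DAG2*. Without replicates, it cannot be said which neighbours in this order differ.

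The comparison of each treatment with MS asks which regulators responded at the transcript level to low GA or to the bacterial extract. Differences were taken on the log2(FPKM + 1) scale, which understates those of low genes, and a gene was called when its difference was at least 2-fold and it had at least 1 FPKM in 1 of the groups compared. In WT seeds on PAC against MS, 2 of 8 regulators were called, *MFT* and *SOM*, both higher, while 7.56% of all 16846 genes were called. *MFT* differed by 2.56 and only 53 genes (0.315%) were further up, and *SOM* differed by 1.52 with 229 genes (1.36%) further up. *RDO5* (0.92) and *DOG1* (0.84) stayed below the limit, with 3.83% and 4.56% of genes further up, *PIF1* differed by 0.31, and *DAG1* (-0.30), *DAG2* (-0.41) and *SPT* (-0.82) were lower. The median over the 8 regulators was 0.58, against 0.01 over all genes. With 0.1 in place of 1 FPKM added, *DOG1* differed by 2.12 and was called as well.

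With extract against MS in WT seeds, *MFT* was the only regulator called of 7 that passed the filter, at 1.12, with 128 genes (0.764%) further up and 1.56% of all genes called. *RDO5* differed by 0.20, and *SPT* by -0.12. *PIF1* (0.01), *SOM* (0.04), *DAG1* (0.07) and *DAG2* (0.03) had nearly the same value with extract and on MS. *DOG1* did not pass the filter, at 0.402 FPKM with extract and 0.177 FPKM on MS. Of the seed maturation markers, all 6 were called higher in WT seeds on PAC and 5 of 6 with extract. Among all genes, 3.25% and 1.0% were called higher there. The part of these markers in the *MFT* values was not tested. In WT seeds on PAC, *EXPA2* (338 FPKM, against 1579 FPKM on MS) and *MAN7* (20.8 FPKM, against 60.6 FPKM on MS), both expressed in the endosperm of germinating seeds, were lower, and the third endosperm marker, the extensin gene AT2G27380, was not called (1201 FPKM, against 932 FPKM on MS). Their part in these differences was not tested either.

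In the groups with GA, fewer regulators stood apart from MS. In WT seeds on PAC and GA, none of 7 was called, against 0.974% of all genes. *MFT* came closest at 0.90, followed by *SOM* (0.49) and *RDO5* (0.35), and *MFT* was called at 1.11 with 0.1 FPKM added. In WT seeds with extract and GA, none of 7 was called, against 1.57% of all genes, and *MFT* (-0.59), *SPT* (-0.24), *RDO5* (-0.21), *SOM* (-0.20) and *DAG1* (-0.19) were lower than on MS.

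In *Δdella* seeds, none of the 6 regulators that passed the filter was called under any treatment against MS. The share of all genes called was 0.794% on PAC, 0.741% on PAC and GA, 1.51% with extract and 1.5% with extract and GA. The largest difference among these 6 was 0.31, for *RDO5* with extract. *MFT* stayed below 1 FPKM in all *Δdella* groups but was highest with extract (0.677 FPKM, against 0.137 FPKM on MS), a difference of 0.56. Its plain ratio of extract to MS was 4.95 in *Δdella* seeds, at these low levels, and 2.65 in WT seeds. *DOG1* and *MFT* were so close to 0 in *Δdella* seeds that a lower level under a treatment could hardly be seen. For PAC against MS, the difference in *Δdella* seeds minus that in WT seeds was -2.49 for *MFT*, -1.37 for *SOM*, -0.84 for *RDO5* and *DOG1*, -0.39 for *PIF1*, 0.12 for *DAG2*, 0.39 for *DAG1* and 0.76 for *SPT*. With 1 value per group, no interaction could be tested. Of the seed maturation markers in *Δdella* seeds, 3 of 6 were called higher than on MS with extract and 4 of 6 with extract and GA. Among all genes, 0.885% and 1.02% were called higher there. On PAC and on PAC and GA, 0 of 6 were called, and the part of these markers was not tested.

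**Figure D2:**
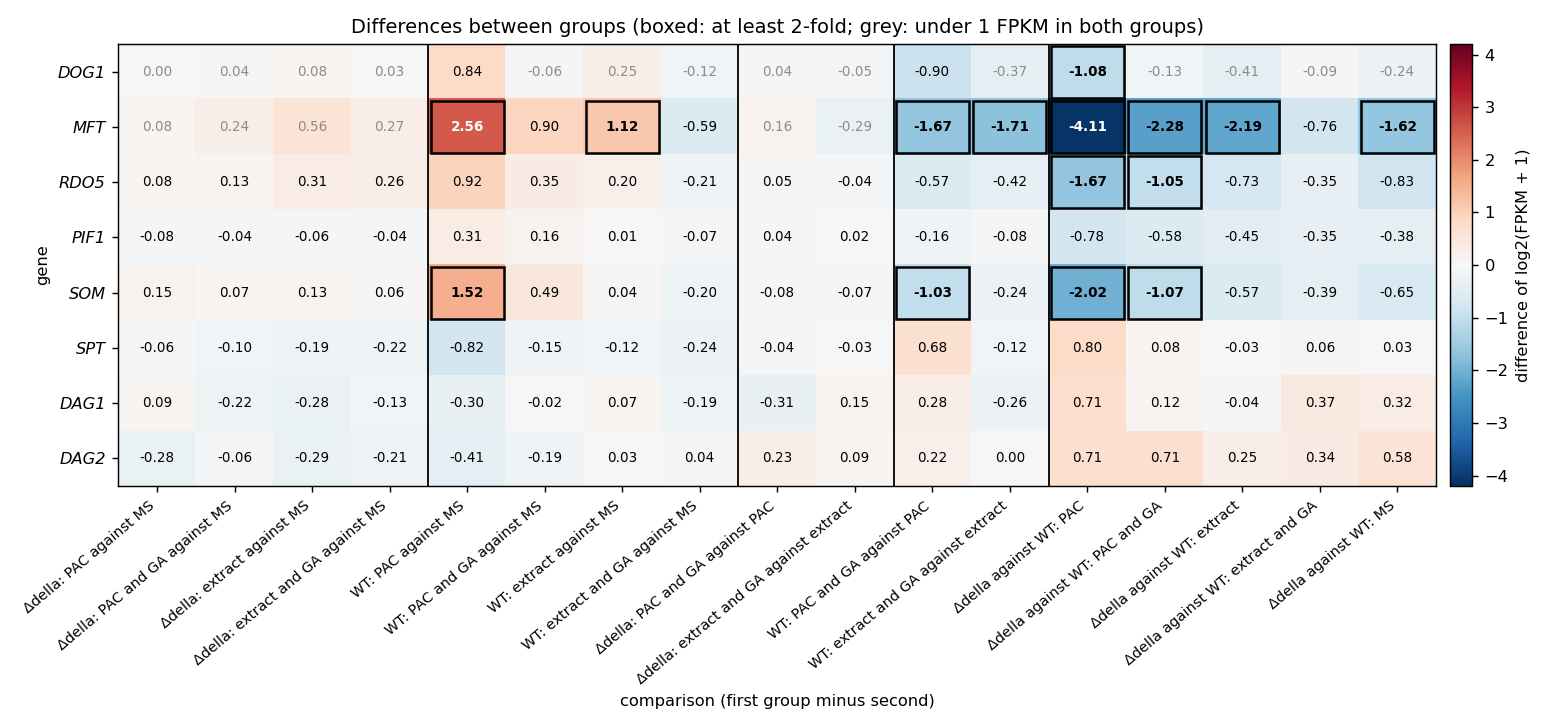
Differences of log2(FPKM + 1) of the 8 regulators (rows) in 17 comparisons (columns, first group minus second). Red is higher and blue lower in the group named first, boxes mark differences of at least 2-fold, and grey figures mark genes under 1 FPKM in both groups. The boxes lie in WT columns and in columns that set *Δdella* against WT seeds, with the darkest, -4.11, for *MFT* on PAC.

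Adding GA to PAC or to extract asks whether GA brought the regulators back. In WT seeds on PAC and GA against PAC, *MFT* (-1.67) and *SOM* (-1.03) were called lower, 2 of 8, against 4.98% of all genes. *DOG1* (-0.90) and *RDO5* (-0.57) were also lower and *SPT* (0.68) was higher. On PAC and GA, *MFT* at 5.52 FPKM and *SOM* at 177 FPKM stood above their MS values of 2.50 and 126 FPKM. With extract and GA against extract in WT seeds, *MFT* (-1.71) was the only one of 7 called, against 1.42% of all genes, and *RDO5* (-0.42) and *SOM* (-0.24) were lower. There *MFT*, at 1.33 FPKM, lay below its MS value. In *Δdella* seeds, none of 6 was called for PAC and GA against PAC (0.806% of all genes) or for extract and GA against extract (0.789% of all genes). The seed maturation markers, all 6, were called lower when GA was added to either treatment in WT seeds, and their part was not tested.

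Comparing *Δdella* with WT seeds asks how the regulators depended on the DELLA genes. On PAC, 4 of 8 regulators were called, all lower in *Δdella* seeds: *MFT* (-4.11), *SOM* (-2.02), *RDO5* (-1.67) and *DOG1* (-1.08). Both *MFT* and *DOG1*, listed at 0.198 and 0 FPKM in *Δdella* seeds, passed the filter only through WT seeds. Of all genes, 15.9% were called in that comparison, and 49 genes (0.283%) were further down than *MFT*. Under the other conditions too, *MFT* was under 1 FPKM in *Δdella* seeds. It passed the filter there only through WT seeds and could only be called lower. *PIF1* (-0.78) was lower without being called, and *SPT* (0.80), *DAG1* (0.71) and *DAG2* (0.71) were higher. On PAC and GA, *MFT* (-2.28), *SOM* (-1.07) and *RDO5* (-1.05) were called, 3 of 7, against 7.3% of all genes. With extract, *MFT* (-2.19) was called, 1 of 7, against 6.5% of all genes, and *RDO5* differed by -0.73. With extract and GA, none of 7 was called, against 3.77% of all genes, and *MFT* differed by -0.76, or by -1.59 with 0.1 FPKM added. On MS, *MFT* (-1.62) was called, 1 of 7, against 5.95% of all genes, and *RDO5* (-0.83), *SOM* (-0.65) and *DAG2* (0.58) followed. These 5 comparisons share no group, but within each genotype the treatment comparisons share the MS group, and the comparisons of added GA share the PAC or extract group with them. The seed maturation markers were called lower in *Δdella* seeds, 6 of 6, on PAC, on PAC and GA, with extract and on MS, and 2 of 6 with extract and GA. Of the endosperm markers on PAC, *EXPA2* and *MAN7* were higher and AT2G27380 lower in *Δdella* seeds. Of the 5 green seedling markers, *RBCS3B* (255 FPKM in *Δdella* seeds, against 99.75 FPKM in WT seeds) and *CAB1* (15.3 FPKM, against 6.17 FPKM in WT seeds) were called higher on PAC. The other 3, *RBCS1A* (1308 FPKM, against 1966 FPKM in WT seeds), *LHCA3* (5.33 FPKM, against 8.23 FPKM) and *LHCB3* (2.17 FPKM, against 2.51 FPKM), were lower without being called, the median over the list was -0.15, and the part of these lists in the regulators' values was not tested.

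**Figure D3:**
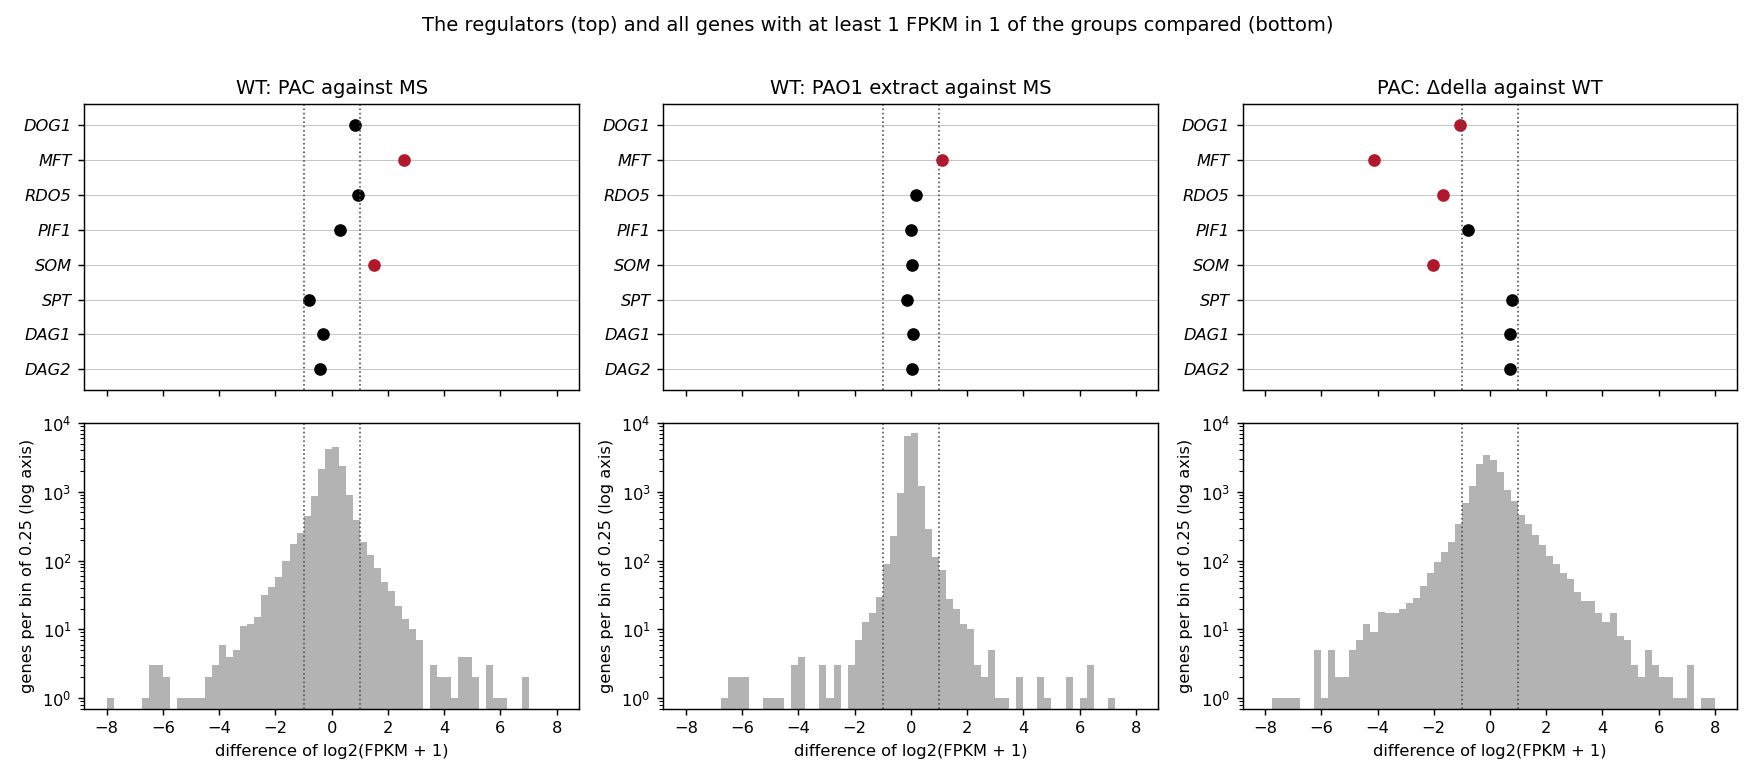
Differences of log2(FPKM + 1) of the regulators that passed 1 FPKM (top, 1 row per gene, red when at least 2-fold) and of all genes tested (bottom, number of genes per bin on a log axis), for WT seeds on PAC against MS, WT seeds with extract against MS, and *Δdella* against WT seeds on PAC. *MFT* lies in the tail in all 3 panels (2.56, 1.12 and -4.11), whereas *SOM* lies there on PAC and near 0 with extract (0.04).

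Without regard to size, 5 of 8 regulators (*DOG1*, *MFT*, *RDO5*, *PIF1* and *SOM*) had all 5 *Δdella* values below all 5 WT values, a pattern of 18.1% of the 17822 genes with at least 1 FPKM in a group. *DAG2* alone had all *Δdella* values above the WT values, as did 18.3% of genes. The same 5 regulators were highest in WT seeds on PAC among the 5 WT groups, as were 35.3% of genes. The other 3, *SPT*, *DAG1* and *DAG2*, were lowest there, as were 36.8% of genes. The 5 regulators with a maximum on PAC were also each lowest in WT seeds with extract and GA. This combination was taken from the values of these same regulators. It was found in 15.5% of genes, or in 2766 of the 6300 genes with a maximum on PAC. *DOG1* is among the 17822 genes only through its 1.11 FPKM in WT seeds on PAC, so the filter fixed its maximum there. Its *Δdella* values, 0 to 0.0568 FPKM, are close to the lower limit. *MFT*, with 0.137 to 0.677 FPKM in *Δdella* seeds, is among the 17822 genes only through WT seeds. For *DOG1* and *MFT*, *Δdella* values all above the WT values were therefore not possible.

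The pattern over the 10 groups was also compared between genes by Pearson's r of log2(FPKM + 1), given only as a description, since the groups share genotypes and treatments and WT seeds on PAC carry much of the variation. Among the regulators, *MFT* and *RDO5* were closest, with r of 0.99 and 0.98 without WT seeds on PAC. *PIF1* and *SOM* had r of 0.91, and 0.95 without that group. *SPT* ran against *SOM* with r of -0.83, which was -0.22 without WT seeds on PAC. Of 3028 genes with at least 5 FPKM in a group and a 2-fold range, those nearest to *MFT* were AT3G56350 (a superoxide dismutase family gene), AT1G21680 and AT3G01520, with r of 0.992 to 0.993. AT3G56350 had 3.95 FPKM in *Δdella* seeds on PAC and 2.89 FPKM in *Δdella* seeds on MS, and 118 FPKM in WT seeds on PAC and 14.2 FPKM in WT seeds on MS. Nearest to *RDO5* were *J11* (AT4G36040, a DnaJ domain gene), AT3G26770 and AT2G20920 (0.994 to 0.996), and nearest to *SOM* were *UGT74F2*, AT5G36160 and AT4G16150 (0.994 to 0.997). Nearest to *PIF1* were AT4G02880, AT5G52450 and *PYL13* (0.994 to 0.997), and nearest to *DOG1* were the embryo-specific gene *ATS3*, *NADP-ME1* and *HR4* (0.975 to 0.979). For *SPT* they were AT3G48140, AT4G13710 and AT3G49790 (0.979 to 0.985), for *DAG2* AT5G04480, *GONST3* and AT4G34420 (0.982 to 0.986), and for *DAG1* *PHR1* (AT1G12370), AT1G72510 and *RD21B* (0.879 to 0.894). Thus *DAG1* had the least close neighbours, and its range over all groups was also small.

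The 300 bases before each gene start were searched on both strands for CACGTG (the G-box, bound by PIFs and other bHLH and bZIP factors), for ACGTG (the core of ABA-responsive elements, contained in the G-box) and for CATGCA (the RY element, bound by B3 factors such as *ABI3*). Of 26686 promoters of this length in the RefSeq annotation of TAIR10.1, 7.18% held CACGTG, 25.7% held ACGTG and 10.4% held CATGCA. The 3 regulators with a match are printed 5′ to 3′ on the strand of the gene, ending at the base before its start, with the matched letters in capitals: *MFT* (chr1:6230195-6230494, minus strand), with ACGTG at 187 to 183 and 140 to 136 bases before the start, *RDO5* (chr4:6744800-6745099, plus strand), with a pair of overlapping CATGCA matches on opposite strands at 262 to 255 bases, and *SPT* (chr4:17413783-17414082, plus strand), with CACGTG at 187 to 182 bases. They are shown because they are the regulators with a match, and because *MFT* and *RDO5* had the closest pattern of all pairs of regulators.
MFT: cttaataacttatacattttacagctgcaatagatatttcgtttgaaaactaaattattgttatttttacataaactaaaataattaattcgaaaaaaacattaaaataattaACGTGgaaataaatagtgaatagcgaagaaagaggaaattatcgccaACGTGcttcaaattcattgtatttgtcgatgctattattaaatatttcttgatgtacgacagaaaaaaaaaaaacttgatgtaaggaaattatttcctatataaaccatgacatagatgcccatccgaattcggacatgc
RDO5: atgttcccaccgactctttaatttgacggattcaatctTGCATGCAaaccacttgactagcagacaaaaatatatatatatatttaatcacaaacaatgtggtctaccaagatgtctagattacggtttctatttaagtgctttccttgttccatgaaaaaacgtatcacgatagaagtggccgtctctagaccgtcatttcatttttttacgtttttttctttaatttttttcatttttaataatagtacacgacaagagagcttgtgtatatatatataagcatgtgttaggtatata
SPT: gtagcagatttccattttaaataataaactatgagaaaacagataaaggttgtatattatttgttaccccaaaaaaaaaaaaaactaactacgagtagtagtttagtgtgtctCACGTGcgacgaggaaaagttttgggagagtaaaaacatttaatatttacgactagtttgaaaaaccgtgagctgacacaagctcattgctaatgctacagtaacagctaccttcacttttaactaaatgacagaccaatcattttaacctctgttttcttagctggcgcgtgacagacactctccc
*MFT* and *RDO5*, the pair with the closest pattern, thus shared none of the 3 motifs in this window. *DOG1*, *PIF1*, *SOM*, *DAG1* and *DAG2* had no match, which says only that these letters are not in that window.

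Relatives and partners of the regulators were examined as lists. No phytochrome gene, 0 of 5, was called in any of the 17 comparisons, in which 0.741% to 15.9% of all genes were called. Of 9 bHLH relatives of *PIF1* and *SPT*, 5 passed the filter in WT seeds on PAC against MS, and 2 of these were called, against 7.56% of all genes. There *PIL2*, of the *PIF3* family, was called higher (6.49 FPKM, against 1.09 FPKM on MS) and *ALC*, which acts with *SPT* in the fruit, was called lower (10.2 FPKM, against 31.3 FPKM on MS). On PAC, *PIL2* and *PIF4* had lower values in *Δdella* than in WT seeds, and *ALC* and *HFR1* were higher, with 39.6 FPKM in *Δdella* seeds for *ALC*. *ALC* thus had the direction of *SPT*, and *PIL2* that of *SOM*. Of 10 tandem CCCH zinc finger relatives of *SOM*, 3 were called higher in WT seeds on PAC against MS, where 3.25% of all genes were called higher, and 0 of 10 were called with extract, against 1.56% of all genes. They were *ATCTH* (11.6 FPKM, against 4.58 FPKM on MS), *OZF2* (7.70 FPKM, against 2.77 FPKM on MS) and *PEI1* (4.49 FPKM, against 1.15 FPKM on MS). All 3, and *OZF1* (8.56 FPKM in *Δdella* seeds, against 23.65 FPKM in WT seeds), had lower values in *Δdella* than in WT seeds on PAC. These 4 of 10 were called lower, against 6.0% of all genes. *PEI1* (0.523 FPKM in *Δdella* seeds) passed the filter there only through WT seeds.

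Of 9 hormone enzyme and demethylase genes known to lie downstream of *PIF1* and *SOM*, 7 passed the filter in WT seeds on PAC against MS. They gave 1 call in each direction, against 7.56% of all genes called. *GA3OX1*, a GA synthesis enzyme repressed through *PIF1*, was higher at 93.9 FPKM, against 22.4 FPKM on MS. *CYP707A2*, which inactivates ABA, was lower at 2.60 FPKM, against 6.68 FPKM on MS. No gene of this list was called with extract in WT seeds, against 1.56% of all genes. On PAC, *GA3OX1* (21.6 FPKM in *Δdella* seeds, against 93.9 FPKM in WT seeds), the ABA synthesis gene *ABA1* (9.49 FPKM, against 21.65 FPKM) and *NCED9* (1.02 FPKM, against 3.04 FPKM) were lower in *Δdella* seeds. *CYP707A2* (14.7 FPKM, against 2.60 FPKM) and *GA2OX2* (2.46 FPKM, against 0.720 FPKM) were higher. Of 9 that passed the filter, 3 were thus called lower and 2 higher, against 6.0% and 9.86% of all genes. *GA2OX2* passed only through *Δdella* seeds. On PAC, *GA3OX1* therefore had the same direction as *SOM*, and *CYP707A2* the opposite one. With extract in WT seeds, *GA3OX1* had 13.9 FPKM, below its 22.4 FPKM on MS, whereas *SOM* was near its MS value. With extract and GA, *GA3OX1* was called lower than on MS at 10.7 FPKM, 1 of 8, against 0.835% of all genes. Of 8 partners and other genes of the *DOG1* and *RDO5* pathways, including the phosphatase gene *AHG1*, 7 passed the filter. In WT seeds 0 of these were called on PAC or with extract, against 7.56% and 1.56% of all genes. The one call of that list was *ABI3*, a B3 factor of seed maturation, with 83.7 FPKM in *Δdella* seeds on PAC, against 217.9 FPKM in WT seeds on PAC.

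The closest relatives of *DOG1*, 4 genes that lie near each other on chromosome 4, were called in more comparisons than *DOG1*. RefSeq annotates 3 of them as delay of germination proteins and AT4G18650 as a transcription factor-like protein. All 4 were called higher in WT seeds on PAC against MS, against 3.25% of all genes. AT4G18660, with 0.434 FPKM on MS, passed the filter there only through the PAC group. The median difference of the 4 genes was 2.23, against 0.01 over all genes. On this scale, which compresses the differences of low genes, AT4G18650 differed by 1.31 and *DOG1* by 0.84, whereas the plain ratio of PAC to MS was larger for *DOG1* (6.25) than for AT4G18650 (2.69). AT4G18690 had 0.176 FPKM on PAC, 0.280 on PAC and GA, 0.182 with extract, 0.303 with extract and GA and 0.257 on MS in *Δdella* seeds. In WT seeds AT4G18690 had 56.05 FPKM on PAC, 9.03 on PAC and GA, 6.49 with extract, 1.54 with extract and GA and 2.34 on MS. The WT groups thus had the same order as for *RDO5*. AT4G18650 was the other one called with extract in WT seeds, with 15.5 FPKM, against 7.08 FPKM on MS. With extract, 2 of 3 that passed the filter were thus called higher than on MS, against 1.0% of all genes. On PAC and GA, AT4G18680 and AT4G18690 were called higher than on MS in WT seeds, 2 of 4, against 0.544% of all genes. AT4G18680 had 0.754 FPKM in *Δdella* seeds and 21.9 FPKM in WT seeds on PAC, and AT4G18660 was listed at 0 in *Δdella* seeds on PAC, against 4.80 FPKM in WT seeds. All 4 were called lower in *Δdella* than in WT seeds on PAC and on PAC and GA, against 6.0% and 2.58% of all genes. In both comparisons AT4G18660, AT4G18680 and AT4G18690 were under 1 FPKM in *Δdella* seeds. They passed the filter only through WT seeds and could only be called lower. Of 3 that passed the filter, 3 were called lower with extract, 2 on MS and 0 with extract and GA. AT4G18690 passed only through WT seeds in each of these, and AT4G18680 did so on MS. Of all genes, 2.28%, 1.87% and 1.03% were called lower in these comparisons. How the authors' counting treated reads shared between such related genes is not stated, so the split between them is uncertain.

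**Figure D4:**
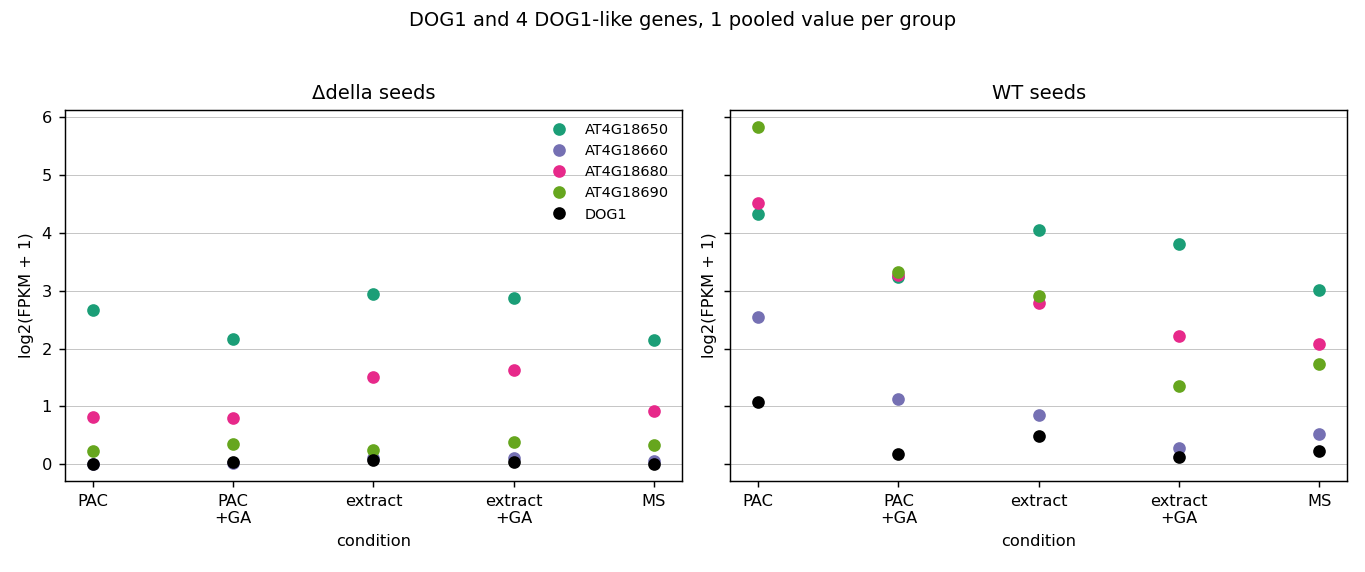
Levels on the log2(FPKM + 1) scale of *DOG1* (black) and 4 DOG1-like genes in *Δdella* seeds (left) and WT seeds (right) by condition, 1 pooled value per point. AT4G18690 stands highest in WT seeds on PAC (56.05 FPKM) and is under 1 FPKM in every *Δdella* group, while *DOG1* passes 1 FPKM only in WT seeds on PAC (1.11 FPKM).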

How the data were processed

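RNA of WT (Col-0) and *Δdella* seeds was sequenced by the authors as single-end 50 bp reads (TruSeq Stranded mRNA kit), mapped to TAIR10 with TopHat and passed to Cuffdiff with the replicates of each group pooled. The versions of these tools, the annotation release, the strand setting and the normalization were not given in the sources used here. Deposited values are FPKM, 1 per gene and group, for 20 libraries in 10 groups. The table also holds the authors' fold changes, test statistics, p-values and q-values for 45 pairs of groups, which were not used.

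The depth in reads is unknown: at most 17.7% of 300 low values per group were whole multiples of 1 step (tolerance 0.05), so reads were not recovered. FPKM summed to 882351 to 988764 per group, and 12095 to 12791 genes were at 0.

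Groups were taken from sample titles and the group names in the table. For 17 comparisons (treatment against MS, GA added, *Δdella* against WT), the difference of log2(FPKM + 1) was computed for genes with at least 1 FPKM in 1 of the 2 groups, and called at 2-fold. No test was run, as there are no replicate values. Alternatives were a pseudocount of 0.1 FPKM, no filter, a minimum of 5 FPKM and median-ratio scaling (factors 0.988 to 1.015 over 15363 genes). The 8 genes and the gene lists were chosen with earlier results of these data known. Genes of the lists were named when they had 5 FPKM in a group and were called in WT PAC or extract against MS or in *Δdella* against WT on PAC. *PEI1*, *PIF4*, *HFR1*, *NCED9*, *GA2OX2* and AT4G18660, below that level, were named after their values were seen, and so were the genes of the lists without a call. For each regulator the 3 genes with the highest r were named. Promoters were read from RefSeq TAIR10.1, where 32810 genes matched by locus tag and 32809 of them overlapped the deposited locus. Python 3.11.15, numpy 2.4.6, pandas 2.3.3 and matplotlib 3.10.9 were used.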

Additional observations from a re-analysis of the deposited data

How the results depend on the processing

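No paired analysis was possible because the deposited values are pooled over the replicates, and for the same reason no replicate could be left out. With a pseudocount of 0.1 FPKM, 1 regulator (*MFT*) was called in place of 0 for WT seeds on PAC and GA against MS and for *Δdella* against WT seeds with extract and GA. *DOG1* in WT seeds on PAC against MS (2.12) and on PAC and GA against PAC (-2.42), and *DAG1* in *Δdella* against WT seeds on PAC (1.02), were called in addition. With a minimum of 5 FPKM, 0 in place of 1 regulator was called for *Δdella* against WT seeds on MS, since *MFT* did not pass it, and 3 in place of 4 for *Δdella* against WT seeds on PAC, since *DOG1* did not pass it. Dropping the filter could alter no call, since a gene under 1 FPKM in both groups cannot reach 2-fold once 1 FPKM is added. Median-ratio scaling altered no call, and no difference changed sign under any of the 4 alternatives. Over all genes, the pseudocount of 0.1 FPKM raised the count called by more than 1.5-fold in 13 of 17 comparisons, for instance to 305 from 163 for WT seeds on PAC and GA against MS and to 454 from 262 for WT seeds with extract against MS, and the minimum of 5 FPKM lowered it by more than 1.5-fold in 10, for instance to 427 from 645 for *Δdella* against WT seeds with extract and GA. The pooled values carry no error, so that small differences, such as those of *DAG1* and *DAG2* at a few FPKM, cannot be told from variation between replicates.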

Other observations

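The 5 PEBP relatives of *MFT* (*FT*, *TSF*, *TFL1*, *BFT* and *ATC*), which act in flowering and shoot architecture, did not pass 1 FPKM in any group. *FT* and *BFT* were listed at 0 in all 10 groups, and *TSF*, with 0.434 to 0.575 FPKM in *Δdella* seeds and 0 to 0.531 FPKM in WT seeds, had the highest values. *MFT* was therefore the only one of these 6 related genes with a value above 1 FPKM.

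Of 6 other transcription factors of dormancy and germination, only *ABI4* was called in WT seeds on PAC against MS, where it was lower (41.7 FPKM, against 142.7 FPKM on MS). Of all genes, 7.56% were called in that comparison. *ABI4*, an AP2 factor of ABA signaling, had 131 to 144 FPKM in *Δdella* seeds, and 106.9 FPKM in WT seeds on PAC and GA and 128 to 145 FPKM in the remaining WT groups. *TCP14*, which promotes germination through the growth of the embryo, had 35.0 FPKM in *Δdella* seeds on PAC, against 15.3 FPKM in WT seeds on PAC. *ABI5*, the bZIP factor that represses germination, had 36.8 FPKM in *Δdella* seeds on PAC, against 70.35 FPKM in WT seeds on PAC, and was not called. None of the 6 was called with extract in WT seeds, against 1.56% of all genes.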
